A study of Homo sapiens and Mus musculus with 20 samples.

Results

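Chromatin accessibility was measured at 10 genes of the epithelial-mesenchymal transition in SW480 cells, a line established from a human colorectal adenocarcinoma, after treatment with a short-chain fatty acid. The 10 genes were 3 epithelial genes (CDH1, EPCAM and ESRP1) and 7 mesenchymal genes (CDH2, VIM, FN1, ZEB1, ZEB2, SNAI1 and SNAI2). Their regions were all intervals called accessible in any of 12 libraries that touched a gene body or the 20 kb on either side of it in the GENCODE annotation of GRCh38. The rule used position only, and it gave 106 regions of 252173 in the 12 libraries, 52 at the epithelial genes and 54 at the mesenchymal genes. Cells were kept for 12 to 16 h in medium with NaPr, the sodium salt of propionate, at 10 mM, or with NaBu, that of butyrate, at 1 mM, and Omni-ATAC, in which a transposase cuts open chromatin, was run on 50000 cells per reaction. Each compound was tested in an experiment of its own, with 3 treated and 3 untreated libraries and 1 dose, so the 4 groups were untreated cells of the NaPr experiment, NaPr, untreated cells of the NaBu experiment and NaBu. No source used here says whether the 3 libraries of a group came from separate cultures, so p-values measure the spread between these libraries, which may be technical.

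In the epithelial-mesenchymal transition, cells held together by E-cadherin junctions take on a migratory form with N-cadherin, an intermediate filament network of vimentin and a matrix that holds fibronectin. The SNAI and ZEB factors are zinc finger repressors that bind short E-box motifs, among them those of the CDH1 promoter, and ESRP1 sets the epithelial pattern of splicing. The switch is graded rather than complete in many carcinomas. Accessibility is not expression: an open promoter may or may not be transcribed.

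Peak lists, not reads, were compared. Each list was cut by its makers at 300000 numbered summits, and the 12 SW480 lists held 108442 to 144398 intervals. A region's strength in a library was its percentile rank: the share of the regions with a peak in that library whose highest −log10 p did not exceed its own, with 0 for a region without a peak. A change is the treated minus the untreated mean in percentile points, tested with limma on the 6 libraries of an experiment over every region with a peak in at least 2 of them, and called where the Benjamini-Hochberg adjusted p fell under 0.05. The lowest local background of each library, in tags per window recovered from the peak statistics, spanned 0.936 to 2.35 in the NaPr experiment. It spanned 2.11 to 3.03 in the NaBu experiment. By this measure the NaPr libraries were more uneven and mostly shallower, though the ranges overlapped. NaBu lists held more intervals (126008 to 128955) than their controls (108442 to 120971), and the median change of all tested regions was 2.92 points with NaBu and 0.53 with NaPr. Ranked from the top over all tested regions, these medians were 0.42 and −0.21. List length then entered only through the tied rank shared by the regions without a peak. With that ranking the calls over all regions went from 29692 higher and 16211 lower to 23638 and 22419 with NaBu, and from 3847 and 2751 to 5983 and 5667 with NaPr. With summit tags scaled by background NaPr gave 8683 and 716, and with tags scaled by their median 7666 and 12212. As a check of the label, 6 of 9 colon epithelium markers had a peak at the start in all 12 libraries (CDX1 in none, KRT20 in 3 and LGALS4 in 8), while 7 of 11 markers of leukocytes, endothelium and fibroblasts had none in any library and CD14 and COL1A2 had one in all 12.

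The 106 regions were unevenly spread and unevenly shared. EPCAM and CDH1 had 19 each, SNAI1 17, ESRP1 14, FN1 and SNAI2 9 each, ZEB1 7, VIM 5, ZEB2 4 and CDH2 3. Per 100 kb of window, SNAI1 had 37.0, EPCAM 23.0 and SNAI2 20.4 regions, whereas ZEB1 had 2.79, ZEB2 2.03 and CDH2 1.05. A peak was present in all 12 libraries for 29 regions and in 1 library for 23, and 22 regions had peaks in the NaPr experiment only and 34 in the NaBu experiment only. The regions found in all 12 libraries were long (median 1165 bases) and rich in G and C (median 61%), and those found in 1 library were short (149 bases, 46%). Of the 106, 42 were tested in both experiments, 15 with NaPr only, 25 with NaBu only and 24 in neither. Of 84 member regions with a NaBu-experiment peak, 4 (4.76%) had one in every treated and no untreated library, against 5.24% of all. With NaPr the count was 3 of 72 (4.17%, against 1.8%). The reverse pattern held for 2 of 84 (2.38%, against 3.04%) and 1 of 72 (1.39%, against 0.918%). Such regions entered the test through 1 group alone, and the zeros of the other have no spread. Their p-values are thus weak evidence.

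With NaPr the share of member regions called was near that of all regions. Of 28 tested epithelial regions 1 was higher and 1 lower, and of 29 mesenchymal regions 1 was higher and 0 lower by limma, 3 of 57 or 5.26%, where 5.32% of all 124067 tested regions were called (3.1% higher, 2.22% lower). The 3 were EPCAM −28.8 kb and VIM −11.3 kb, which rose, and the ESRP1 start, which fell. Regions are named by the distance of their nearer edge from the start of the canonical transcript, negative upstream. A region that covers the start is named as the start. At an unadjusted p under 0.05 there were 9 epithelial and 10 mesenchymal regions. Ranked over all tested regions, the calls were 2 higher and 2 lower at epithelial genes and 3 higher and 2 lower at mesenchymal genes, and on summit tags scaled by their median 7 of 18 epithelial and 4 of 14 mesenchymal regions were lower and 1 of each higher, while scaled by background 0 of each were lower and 1 of each higher. Of all 65178 regions tested on tags, 7666 were higher and 12212 lower scaled by median, and 8683 and 716 scaled by background. Ranked by fold enrichment limma gave 0 calls at either or anywhere in the table (20921 regions at an unadjusted p under 0.05). Leaving out any 1 of the 6 libraries removed the EPCAM and ESRP1 calls, and without NaPr replicate 3 limma called 0 of 117931 regions of the whole table (26369 at an unadjusted p under 0.05).

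NaBu moved more, in both directions and at both kinds of gene. At epithelial genes 4 of 34 tested regions were higher and 6 lower, and at mesenchymal genes 7 of 33 were higher and 6 lower, against 24.0% higher and 13.1% lower (37.1% called) of 123730 regions. The share called was 29.4% at epithelial and 39.4% at mesenchymal genes, on both sides of the background. The median change was −0.62 points at epithelial and 1.28 at mesenchymal genes, both under the 2.92 of all regions. None of the 11 regions that rose lay at a gene start, whereas 2 of the 12 that fell lay at the start of a member and 1 at the start of the neighbour DPY19L4. Over all regions 1177 of the 29692 that rose and 2602 of the 16211 that fell lay at a protein-coding start. Ranked by fold, or among regions with a peak in all 6 libraries, the SNAI2 start was called higher. Ranked over all tested regions the split was 3 higher and 7 lower at epithelial genes and 6 higher and 8 lower at mesenchymal genes. On summit tags (either scaling) it was 2 and 15 of 26 epithelial regions, and 3 and 7 of 19 mesenchymal ones. Over all 72559 regions tested on tags, 17176 were higher and 19133 lower scaled by background, and 17454 and 19047 scaled by median. Of the 23 calls, 21 were kept in the ranking over all regions, 11 in the ranking by fold and 13 whichever library was left out.

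**Figure D1:**
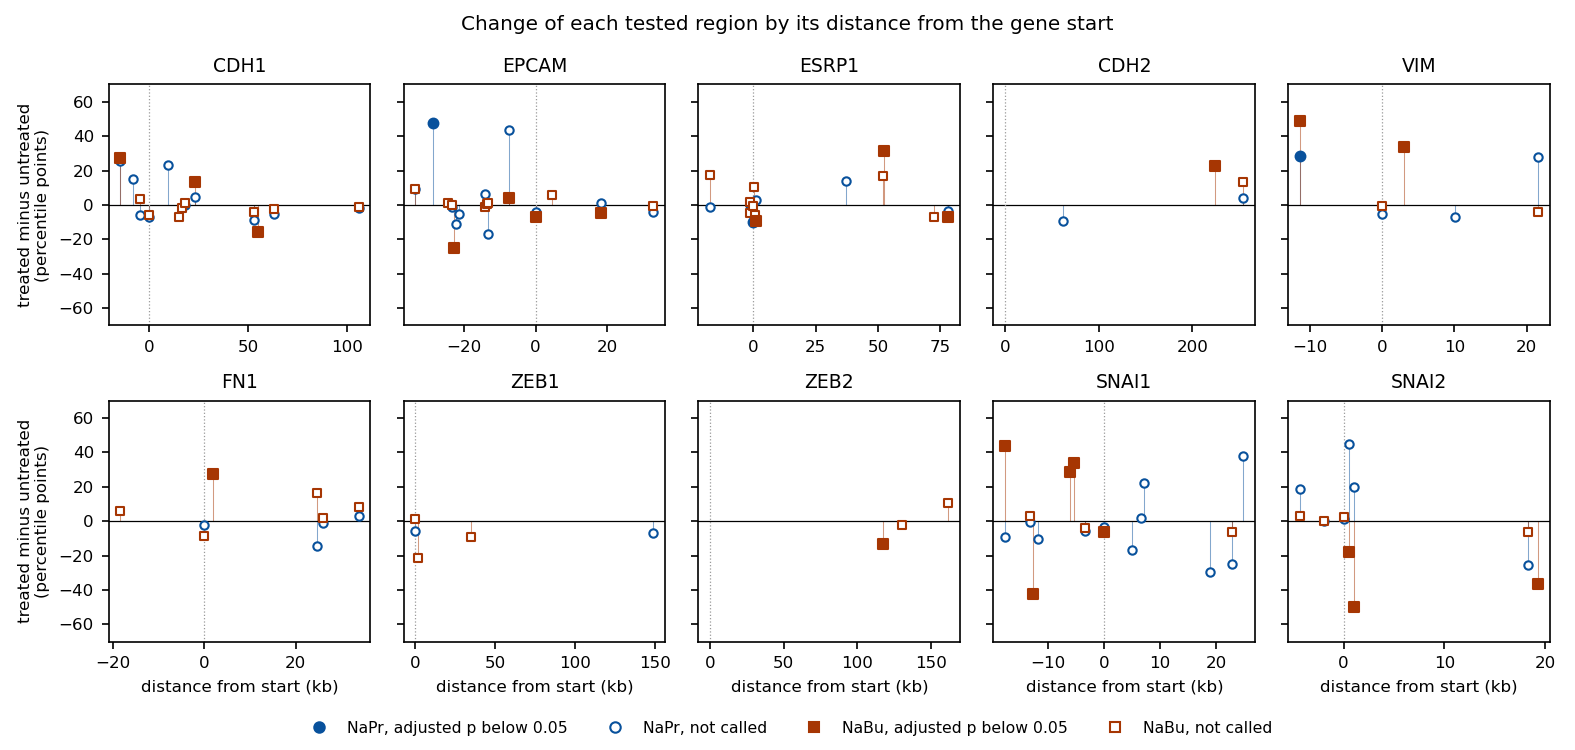
Treated minus untreated percentile rank (vertical axis, percentile points) of every tested region against its distance from the gene start (horizontal axis, kb), 1 panel per gene, circles for NaPr and squares for NaBu, filled where the adjusted p was under 0.05. No filled square that rose is a start region, though those of FN1 +1.8 kb and VIM +3.1 kb lie close to the dotted line at the start. Only 3 circles are filled, at EPCAM −28.8 kb, the ESRP1 start and VIM −11.3 kb.

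The starts of 8 of the 10 genes were open in every library, on both sides of the transition. Ordered by the median rank over 12 libraries they were EPCAM (94.4, range 88.0 to 98.1), SNAI2 (92.7, 89.9 to 95.9), SNAI1 (88.3, 76.0 to 93.5), ESRP1 (87.0, 69.0 to 93.6), ZEB1 (82.4, 75.1 to 85.1), VIM (80.3, 77.3 to 89.7), CDH1 (77.6, 66.8 to 80.9) and FN1 (74.4, 44.7 to 85.2). Neighbours in this order overlapped in range, and the order differed between the experiments. In untreated cells of the NaPr experiment FN1 (mean 84.8) stood above ZEB1 (83.8), ESRP1 (82.3) and CDH1 (79.5), and in those of the NaBu experiment it was last of the 8 (65.2). The ZEB2 start had a peak in 1 of 12 libraries (NaBu replicate 3, rank 14.4), and no library had one at the CDH2 start or within 1000 bases of it. The starts of 3 of the repressor genes, SNAI1, SNAI2 and ZEB1, had higher median ranks than that of CDH1.

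With NaPr the treated mean was lower at 7 of the 8 starts (SNAI2 was the exception), and with NaBu at 6 of 8 (ZEB1 and SNAI2 were the exceptions, and both turned lower on summit tags). Among all protein-coding starts tested, 65.3% of 12810 had a lower treated mean with NaPr and 59.8% of 12597 with NaBu, 6.57% and 30.0% were called, 5.76% and 20.7% lower and 0.804% and 9.34% higher. With NaPr 1 of the 8 member starts was called lower (ESRP1) and with NaBu 2 (EPCAM and SNAI1). On summit tags scaled by their median 6 of 8 were called lower with NaPr and 5 with NaBu, and scaled by background 0 and 5. The shares of all protein-coding starts called on tags were not counted, so these counts have no background beside them.

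**Figure D2:**
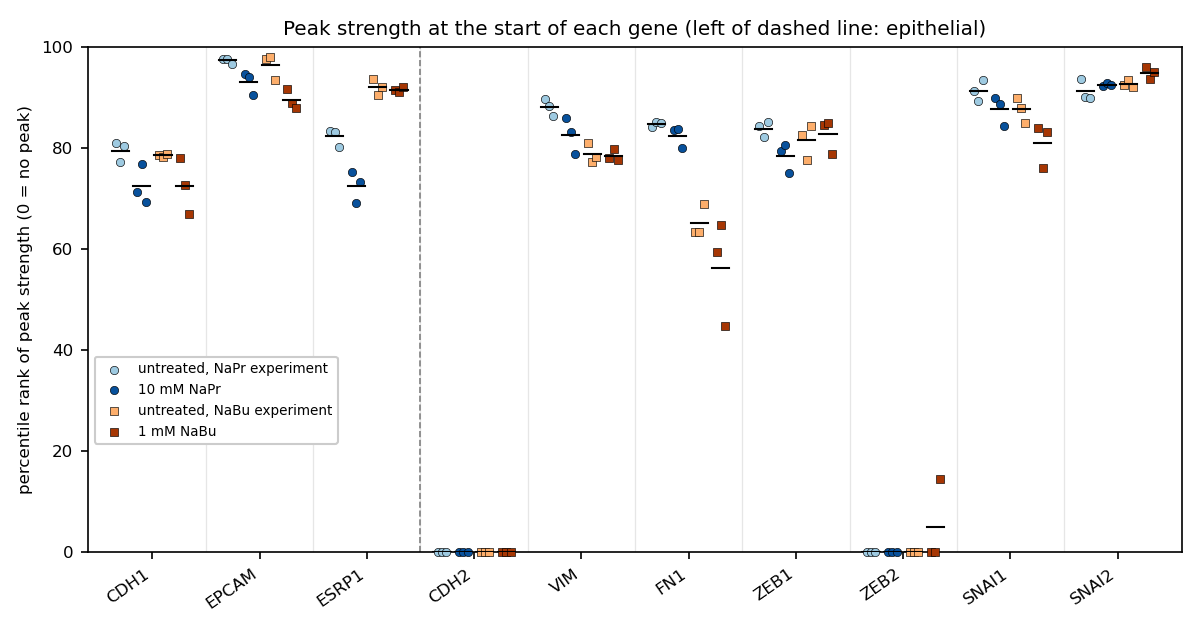
Percentile rank of the region at each gene start (vertical axis, 0 where no peak was called) in each of the 12 libraries, circles for the NaPr experiment and squares for the NaBu experiment, pale for untreated and dark for treated, with a bar at each group mean. Of the 10 starts, 8 lie above 44 in every library, CDH2 lies at 0 throughout and ZEB2 has 1 library above 0.

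CDH1 encodes E-cadherin, the adhesion molecule of epithelial junctions. Its start (chr16:68736994-68738917, exons 1 and 2 with the introns after them) ranked 80.9, 77.2 and 80.3 in untreated cells of the NaPr experiment and 71.3, 76.8 and 69.3 with NaPr. In the NaBu experiment it ranked 78.7, 78.2 and 78.7 untreated and 78.0, 72.6 and 66.8 treated. The treated libraries lay under the untreated ones in both experiments without overlap, but the changes of −7.01 ± 2.67 (SE, limma adjusted p = 0.147) and −6.06 ± 2.73 (0.114) were not called. Ranked over all tested regions the NaBu change reached a limma adjusted p of 0.0492.

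CDH1 was otherwise moved by NaBu at 3 places. In its long second intron the region at +23.2 kb (chr16:68760495-68761499) rose from 70.9, 65.9 and 74.9 to 85.9, 82.7 and 83.7, a change of 13.6 ± 2.40 (limma adjusted p = 0.0035). The region at +55.2 kb in the same intron (chr16:68792477-68793629) fell from 62.3, 59.7 and 67.4 to 42.1, 49.6 and 51.2, a change of −15.5 ± 4.42 (limma adjusted p = 0.0256, kept in 3 of 6 fits that left out a library, up to 0.0886). It was nearly absent from the NaPr experiment, where 1 untreated library held it at rank 1.44. The third, at −14.4 kb (chr16:68721911-68722917) inside the neighbouring P-cadherin gene CDH3, rose from 27.5, 1.01 and 0 to 31.8, 37.6 and 41.7 (27.5 ± 8.32, limma adjusted p = 0.0316). This call was lost in the ranking over all regions (0.0931) and in 5 of 6 fits that left out a library (up to 0.108). With NaPr the same region stood at 0, 15.4 and 0 untreated and 42.3, 30.1 and 18.9 treated, not called (adjusted p = 0.190).

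EPCAM, the epithelial cell adhesion molecule used as a carcinoma marker, had the highest median rank at its start, although with NaBu the SNAI2 and ESRP1 starts ranked above it (means of 94.9 and 91.5 against 89.5). The start region (chr2:47368866-47370355, exon 1 and intron 1) ranked 97.6, 98.1 and 93.5 in untreated cells of the NaBu experiment and 91.7, 88.9 and 88.0 with NaBu. It fell by 6.90 ± 1.40 (SE, limma adjusted p = 0.00611), a call kept whichever library was left out but not in the ranking by fold (0.436). With NaPr it went from 97.6, 97.7 and 96.7 to 94.7, 94.1 and 90.5, again without overlap, a change of −4.25 ± 1.12 just past the threshold (adjusted p = 0.0514, and 0.0175 in the ranking over all regions).

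Regions around EPCAM moved both ways. In the intron of a longer EPCAM transcript, the region at −22.7 kb (chr2:47346235-47346596) fell with NaBu from 76.2, 92.2 and 87.6 to 63.6, 61.4 and 56.5 (−24.8 ± 4.02, limma adjusted p = 0.00241), and none of the 6 libraries of the NaPr experiment had a peak there. At −7.5 kb (chr2:47360401-47361834) NaBu raised an already strong region from 91.0, 95.4 and 93.9 to 95.9, 98.1 and 97.8 (3.86 ± 1.13, limma adjusted p = 0.0280), little more than the 2.92 median of all regions. The call at −7.5 kb was kept in 2 of 6 fits that left out a library. With NaPr that region stood at 0, 38.5 and 58.1 untreated and 76.1, 74.4 and 77.0 treated, a change of 43.6 ± 11.9 that was not called (0.0578). At +18.3 kb, near the 3′ end, ranks of 88.0, 91.2 and 91.2 fell to 85.5, 85.2 and 86.2 with NaBu (limma adjusted p = 0.0137). The region with the largest NaPr rise, at −28.8 kb (chr2:47340119-47340519) inside the divergent noncoding gene EPCAM-DT, had no peak in 9 libraries and ranked 56.5, 43.4 and 43.3 in the 3 NaPr libraries (47.8 ± 10.8, limma adjusted p = 0.0321). That call was lost without any 1 of the 6 libraries (0.0605 to 0.0972).

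ESRP1 encodes an epithelial splicing regulator that keeps the epithelial exons of genes such as FGFR2. Its start (chr8:94640105-94641426, exon 1) was the member start that NaPr lowered, from 83.5, 83.3 and 80.1 to 75.1, 69.0 and 73.3. The change was −9.79 ± 2.40 (SE, limma adjusted p = 0.0415), lost without any 1 of the 6 libraries (0.0651 to 0.146). With NaBu the same start ranked 93.6, 90.4 and 92.2 untreated and 91.5, 91.1 and 92.1 treated, overlapping (−0.53 ± 0.92, adjusted p = 0.665). NaBu moved 3 other regions there. In intron 14, +52.5 kb (chr8:94693692-94693881) had no peak in 9 libraries and ranked 31.8, 27.9 and 33.7 with NaBu (31.1 ± 4.80, limma adjusted p = 0.00199). Just inside the gene, +1.2 kb (chr8:94642368-94642837) went from 73.1, 81.2 and 78.0 to 72.0, 64.2 and 68.4 (−9.21 ± 2.88, limma adjusted p = 0.0360, kept in 2 of 6 fits that left out a library). At +78.2 kb, which is the start of the neighbouring gene DPY19L4, ranks fell from 93.9, 94.8 and 93.3 to 86.7, 86.3 and 87.7 (−7.06 ± 0.80, limma adjusted p = 6.6e-04).

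CDH2 encodes N-cadherin, the adhesion molecule of mesenchymal and neural cells that replaces E-cadherin in a full transition. It was the barest gene of the set, with 3 regions in a window of 285 kb and none at its start. NaBu raised the region at +224.1 kb in intron 15 (27952557-27953064 on chromosome 18) from 23.4, 30.4 and 10.6 to 36.6, 43.2 and 52.2, where no NaPr-experiment library had a peak. The change was 22.5 ± 7.33 (SE, limma adjusted p = 0.0417), lost in the ranking over all regions (0.104) and in 4 of 6 fits that left out a library.

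VIM encodes vimentin, the intermediate filament protein of mesenchymal cells. Its start (chr10:17228164-17230895, the first 3 exons) was open throughout and not called. It ranked 89.7, 88.3 and 86.3 in untreated and 86.0, 83.1 and 78.9 in NaPr-treated cells (−5.44 ± 1.9, limma adjusted p = 0.117, and 0.0353 ranked over all regions). In the NaBu experiment it ranked 80.9, 77.3 and 78.3 untreated and 78.0, 79.7 and 77.6 treated (−0.39 ± 1.60, 0.863). A region 11.3 kb upstream (chr10:17216192-17216938), inside the antisense noncoding gene VIM-AS1, was the 1 member region called in the same direction in both experiments. With NaPr it rose from 43.5, 53.1 and 49.8 to 77.1, 75.5 and 79.0. Its summit held 8, 20 and 23 tags in untreated and 24, 31 and 62 in treated libraries, and its fold enrichment over the local background went from 4.65, 6.26 and 7.95 to 12.9, 14.1 and 21.3. The change was 28.5 ± 4.54 (SE, limma adjusted p = 0.00904), kept in 2 of the 6 fits that left out a library (lost without untreated replicate 3 or any NaPr library, up to 0.0695). With NaBu it rose from 32.8, 12.1 and 0 to 58.6, 65.7 and 67.8, or from 31, 15 and no tags called to 40, 50 and 53 at the summit. That change was 49.1 ± 8.55 (limma adjusted p = 0.00325), kept whichever library was left out. The difference between the 2 changes, NaPr minus NaBu, was −20.6 ± 9.70 and was not called (0.217).

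A second VIM region, at +3.1 kb in intron 3 (chr10:17231359-17231586), was peak-free in 9 libraries and ranked 37.0, 29.7 and 35.1 with NaBu (33.9 ± 5.00, SE, limma adjusted p = 0.00166). Its fold enrichment of 3.47, 3.29 and 3.40 was low for its 67, 64 and 69 summit tags, and the call was lost in the ranking by fold. The region lies beside the start region, and the cause of the low fold was not tested. FN1, which encodes the matrix glycoprotein fibronectin, had a similar region at +1.8 kb in intron 2 (chr2:215433696-215434306), without a peak in 9 libraries and at 38.2, 27.2 and 17.4 with NaBu (27.6 ± 6.13, limma adjusted p = 0.00909). Both calls were kept whichever library was left out, a weak check where no control library had a peak. The FN1 start (chr2:215435411-215436855) went from 63.4, 63.4 and 68.9 to 59.4, 64.7 and 44.7 with NaBu (0.209) and from 84.1, 85.2 and 85.0 to 83.5, 83.8 and 79.9 with NaPr (0.400), neither called. The untreated libraries of the 2 experiments thus differed at this start by more than either treatment moved it.

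The 200 bases around the highest summit are given for the VIM region called in both experiments (plus strand of GRCh38, chr10:17216338-17216537). Capitals mark the AP-1 string TGANTCA and the E-box strings CAGGTG and CACCTG, searched on both strands. The window holds 1 AP-1 string and no E-box.
VIM −11.3 kb: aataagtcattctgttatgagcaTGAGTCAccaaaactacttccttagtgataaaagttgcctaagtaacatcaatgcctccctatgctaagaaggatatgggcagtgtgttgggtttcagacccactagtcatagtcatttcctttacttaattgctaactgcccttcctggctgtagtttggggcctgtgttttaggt

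**Figure D3:**
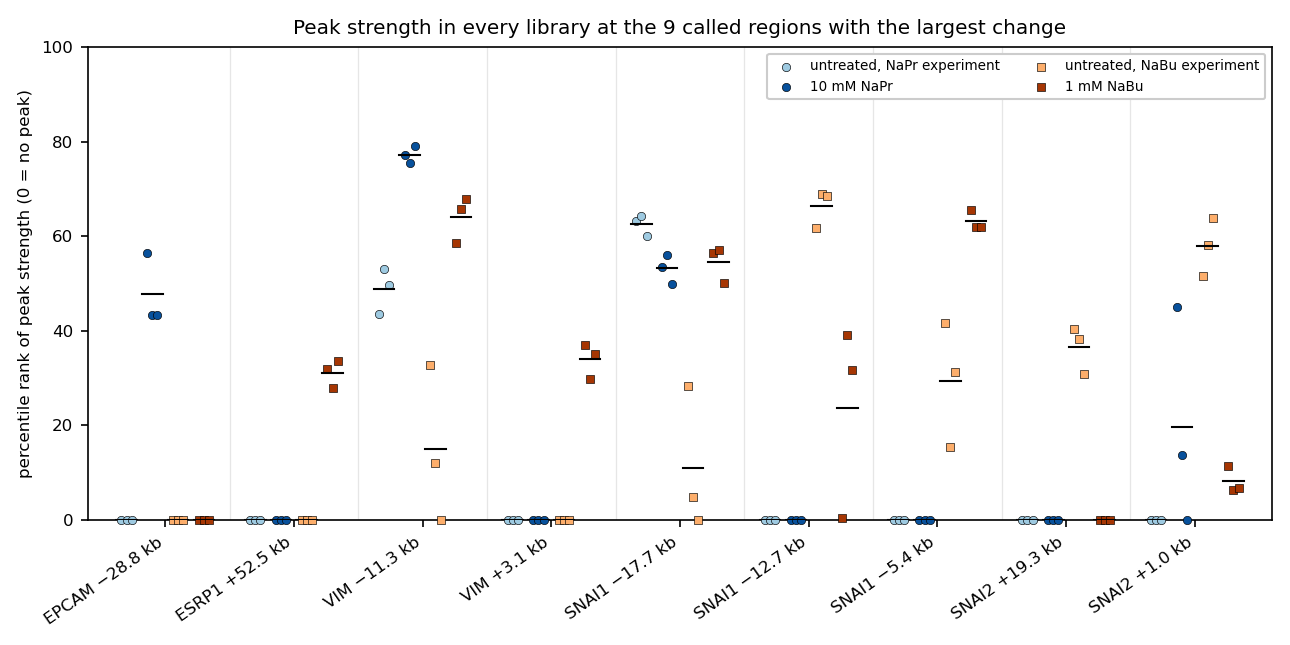
Percentile rank (vertical axis, 0 where no peak was called) in each of the 12 libraries at the 9 called regions with the largest change in either experiment, none of them at a start, with the same symbols and group bars as for the starts. At VIM −11.3 kb both treated groups lie above their controls, at VIM +3.1 kb the 3 NaBu libraries alone are above 0, and at SNAI1 −12.7 kb and SNAI2 +19.3 kb the 6 libraries of the NaPr experiment lie at 0.

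ZEB1 and ZEB2 encode zinc finger and homeobox repressors held back in epithelial cells by the miR-200 family. The ZEB1 start (chr10:31318173-31320976) ranked 84.3, 82.1 and 85.1 untreated and 79.3, 80.6 and 75.1 with NaPr, without overlap (−5.49 ± 2.01, SE, limma adjusted p = 0.133). With NaBu it ranked 82.6, 77.5 and 84.3 untreated and 84.6, 85.0 and 78.7 treated, overlapping (1.28 ± 2.28, 0.677). No ZEB1 region was called in either experiment, of 2 and 3 tested. The ZEB2 start lacked a peak in 11 libraries, and no ZEB2 region could be tested with NaPr. Of 3 tested with NaBu, the intronic region at +117.6 kb (chr2:144402207-144402538) fell from weak ranks of 10.1, 12.1 and 18.3 to no peak in the 3 treated libraries (−13.5 ± 4.24, limma adjusted p = 0.0367). The ZEB2 call was kept in 1 of 6 fits that left out a library.

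The 2 ZEB promoters are shown because one was open in all 12 libraries and the other in 1. Each is the 250 bases before the start in RefSeq (GRCh38.p14, strand of the gene, chr10:31318966-31319215 for ZEB1 and chr2:144520120-144520369 for ZEB2), with the same capitals. The promoter table held 5 of the 10 genes (CDH2, FN1, VIM, ZEB1 and ZEB2). The ZEB1 promoter has 2 E-box strings and ZEB2 none, where 17.5% of 35116 promoters of this length hold at least 1. Their content of G and C is 62.4% and 48%.
ZEB1 promoter: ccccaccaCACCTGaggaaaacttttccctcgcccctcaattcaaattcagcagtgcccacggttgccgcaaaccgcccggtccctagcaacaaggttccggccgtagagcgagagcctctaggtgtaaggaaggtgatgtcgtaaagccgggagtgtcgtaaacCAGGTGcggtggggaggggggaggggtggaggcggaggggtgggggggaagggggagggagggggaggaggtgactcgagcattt
ZEB2 promoter: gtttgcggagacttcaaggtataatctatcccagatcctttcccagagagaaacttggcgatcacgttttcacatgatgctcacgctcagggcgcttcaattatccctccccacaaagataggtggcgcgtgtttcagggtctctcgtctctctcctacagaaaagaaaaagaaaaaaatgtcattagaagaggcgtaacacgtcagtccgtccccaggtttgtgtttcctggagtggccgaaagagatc

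SNAI1 encodes Snail, a repressor of CDH1, and its window was the densest of the set. Of its 8 regions tested with NaBu, 5 were called, where 37.1% of all tested regions were called. Its start (chr20:49982244-49983514, exon 1 and intron 1) fell with NaBu from 90.0, 88.0 and 85.0 to 83.9, 76.0 and 83.2. The change was −6.62 ± 2.24 (SE, limma adjusted p = 0.0476), lost without any 1 of the 6 libraries (0.0535 to 0.168). With NaPr the ranks of 91.4, 89.3 and 93.5 untreated and 90.0, 88.7 and 84.4 treated overlapped (−3.68 ± 1.63, 0.206). Upstream of it NaBu raised 3 regions. The farthest, at −17.7 kb (chr20:49964958-49965327), rose from 28.4, 4.72 and 0 to 56.3, 57.0 and 50.1 (43.5 ± 8.20, limma adjusted p = 0.00453, kept whichever library was left out). With NaPr the same region went from 63.1, 64.3 and 60.1 to 53.5, 56.1 and 49.9 (−9.33 ± 5.40, not called, 0.314).

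The region at −5.4 kb (chr20:49977017-49977586) rose with NaBu from 41.6, 15.5 and 31.3 to 65.5, 61.9 and 61.8 (33.6 ± 7.02, SE, limma adjusted p = 0.00696). Its neighbour at −6.1 kb rose from 51.4, 39.3 and 20.3 to 71.9, 58.9 and 65.6 (28.5 ± 7.91, limma adjusted p = 0.0229, kept in 2 of 6 fits that left out a library). Between the −17.7 and −6.1 kb regions, NaBu lowered one at −12.7 kb (chr20:49969791-49970326) from 61.8, 68.8 and 68.5 to 0.464, 39.0 and 31.7 (−42.6 ± 9.55, limma adjusted p = 0.00944, kept whichever library was left out). The regions at −5.4, −6.1 and −12.7 kb had no peak in the NaPr experiment. Conversely, the region at +24.9 kb downstream had peaks in the 3 NaPr libraries alone (40.3, 50.7 and 21.7), not called (adjusted p = 0.0694).

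SNAI2 encodes Slug, the second Snail-family repressor. Its start (chr8:48921154-48922162) ranked 93.7, 90.2 and 89.9 untreated and 92.3, 92.9 and 92.4 with NaPr, and 92.4, 93.5 and 92.0 untreated and 95.9, 93.7 and 95.1 with NaBu (2.27 ± 0.79, SE, limma adjusted p = 0.0521). Beside this start 2 regions fell with NaBu. At +1.0 kb, in coding exon 2 (chr8:48920278-48920436), ranks of 51.6, 58.0 and 63.9 fell to 11.3, 6.38 and 6.72, the largest fall of the set (−49.7 ± 5.93, limma adjusted p = 7.8e-04). That call was kept whichever library was left out and lost among the strongest 50000 intervals (0.127). At +0.5 kb, in intron 1 (chr8:48920540-48920973), ranks of 56.3, 72.8 and 77.1 fell to 49.9, 45.6 and 57.5 (−17.8 ± 5.91, limma adjusted p = 0.0450, kept in 1 of 6 fits that left out a library). With NaPr the +0.5 kb region went the other way, from 0, 2.57 and 28.2 to 60.6, 53.0 and 51.0 (44.6 ± 11.9, not called, 0.0537). At +19.3 kb, downstream, a region of 40.4, 38.3 and 30.8 had no peak in the NaBu libraries (−36.5 ± 5.26, limma adjusted p = 0.00153).

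NaPr and NaBu were not matched in dose, and each had its own controls, so compound, dose and experiment cannot be told apart. In a limma fit of all 12 libraries the NaPr change differed from the NaBu change in 14 of 83 member regions, 4 of 40 at epithelial and 10 of 43 at mesenchymal genes, where 11.6% of 167303 regions were called (4.92% with NaPr above NaBu, 6.73% below). Of the 14, 8 had no peak in the NaPr experiment and 2 none in the NaBu experiment, controls included. In the other 4 both experiments had peaks. These were the ESRP1 start (NaPr minus NaBu, −9.26 ± 2.28, adjusted p = 0.0232), SNAI1 −17.7 kb (−52.8 ± 9.15, 0.00383), SNAI2 +0.5 kb (62.4 ± 11.1, 0.00436) and SNAI2 +1.0 kb (69.3 ± 12.9, 0.00578). At 3 of these 4 the untreated groups also stood far apart: means of 62.5 and 11.0 at SNAI1 −17.7 kb, 10.2 and 68.7 at SNAI2 +0.5 kb, and 0 and 57.8 at SNAI2 +1.0 kb, in the NaPr and NaBu experiments. The part of this distance in the difference was not tested. The largest difference with peaks in 1 experiment only was EPCAM −28.8 kb (47.8 ± 5.83, 5.6e-04). Every NaBu-experiment value there was 0, so this difference is the NaPr change itself. Its own test gave 47.8 ± 10.8 (limma adjusted p = 0.0321). In such regions the zeros of the other experiment add libraries without spread to the fit.

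**Figure D4:**
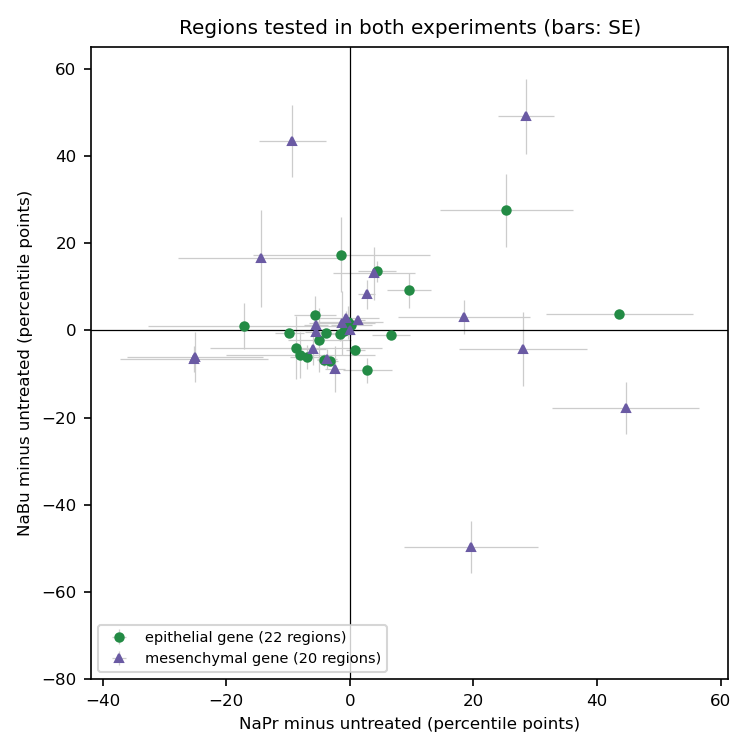
NaBu change (vertical axis) against NaPr change (horizontal axis), both in percentile points with SE bars, for the 42 regions tested in both experiments, circles for 22 regions of epithelial genes and triangles for 20 of mesenchymal genes. VIM −11.3 kb is the triangle at the upper right (28.5 and 49.1), SNAI1 −17.7 kb the one at the upper left (−9.33 and 43.5) and SNAI2 +1.0 kb the lowest (19.6 and −49.7).

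Among the 82 member regions tested in either experiment, 28 (34.1%) held an E-box string and 21 (25.6%) an AP-1 string within 200 bases around the summit, against 22.3% and 18.9% of 164146 tested regions, and 0 held the grainyhead string AACCGGTT (0.0457% of all). An AP-1 string was found in 6 of the 11 regions that rose with NaBu, in 3 of the 12 that fell and in 10 of the 44 not called, and an E-box in 3, 5 and 14. The shares among all regions that rose or fell with NaBu were not counted, so this split cannot be read as particular to these genes. These are counts of letters and were not tested.

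Other genes of the 2 programmes, measured in the same windows, gave a wider view. At 20 further epithelial genes NaPr raised 2 and lowered 20 of 181 tested regions (1.1% and 11.0%, against 3.1% and 2.22% of all regions), and NaBu raised 36 and lowered 33 of 197 (18.3% and 16.8%, against 24.0% and 13.1%). At 25 further mesenchymal genes NaPr raised 14 and lowered 11 of 206 (6.8% and 5.34%), and NaBu raised 54 and lowered 25 of 211 (25.6% and 11.8%). These counts are those of the main ranking, and no alternative was counted for the 2 lists. With NaPr, 5.76% of all protein-coding starts were called lower, and ranking by fold gave 0 calls over all regions. A region 16.5 kb from the start of the keratin gene KRT19 rose with both compounds, by 24.5 points with NaPr (limma adjusted p = 0.0172) and 49.8 with NaBu (0.00107), while one at −12.5 kb fell from a mean of 80.2 to 0.613 with NaBu (2.0e-04). The intermediate filament gene KRT8 lost strength at −0.9 kb with NaBu, from 87.9 ± 1.37 to 25.9 ± 21.6 (SD, n = 3; limma adjusted p = 0.00179). Among mesenchymal genes the largest NaBu rise was 16.6 kb from the start of TWIST1, a basic helix-loop-helix factor of the transition, from 3.35 ± 5.81 to 73.9 ± 1.06 (SD, n = 3; limma adjusted p = 2.8e-04). At THY1, a surface glycoprotein gene, the start neighbourhood (−0.2 kb) gained a peak in the 3 NaPr libraries (56.8 mean, limma adjusted p = 0.0184) and −4.1 kb one in the 3 NaBu libraries (42.0 mean, 0.00101), each without a peak in its controls.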

How the data were processed

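Processed ATAC-seq peak lists of 12 SW480 libraries (4 groups of 3, grouped by the sample labels) were analysed; 8 lists of mouse CT26 cells were not used. Per the study's methods and processing notes, the authors ran the ENCODE ATAC-seq pipeline (bcl2fastq 2.17.1, cutadapt 1.9.1, Bowtie2 2.3.1, MACS2 2.1.0) against hg38 and called peaks in each library, unpooled; tool options are not given in the sources used here. The deposited lists give per summit a fold ratio over the local background of the same library and the −log10 of its p-value and q-value; p and fold were used. No reads or counts were used. Depth was read only as each library's lowest local background in tags, solved for from p and fold together.

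Intervals of the 12 lists that overlapped by at least 1 base were merged. Each region took its highest −log10 p per library as a percentile among the regions with a peak there (no peak, 0). limma 3.58.1 in R 4.3.3 (two-sided, variance trend, Benjamini-Hochberg over all tested regions, threshold 0.05) compared treated with untreated in each experiment, and the 2 changes in 1 fit of 12 libraries. Both steps were tested on simulated data. Genes, starts and neighbours came from GENCODE 44, motif strings from the 200 bases around each region's strongest summit, promoters from RefSeq. No region passed a chromosome end of the 24 compared. The named regions are those at each start, the called region of each gene with the largest rise and fall per experiment, those called alike in both, the 4 largest differences, and for other pathway genes at most 2 rises and 2 falls per list and experiment. CDH1 +23.2 kb, EPCAM +18.3 kb, ESRP1 +78.2 kb, VIM +3.1 kb, SNAI1 −6.1, −5.4 and +24.9 kb, SNAI2 +19.3 and +0.5 kb were described beside them after their values were seen. The member genes and lists were chosen with earlier results of these data known. Alternatives were ranking by fold, peak minimums, 5 kb flanks, merging over 6 libraries, the strongest 50000 intervals, a replicate block, a fit of all 12 libraries, 2 scalings of summit tags, leaving out each library and, added after seeing the data, ranking over all tested regions. Replicate numbers did not pair the libraries. Of the other pathway genes, 1 named by the rule is not reported here, nor is 1 region's sequence.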

Additional observations from a re-analysis of the deposited data

Results flagged for a closer look

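In 14 member regions the NaPr change differed from the NaBu change by the limma test of the difference itself (adjusted p under 0.05 over all regions). The values, NaPr minus NaBu in percentile points, were 47.8 at EPCAM −28.8 kb, 24.8 at EPCAM −22.7 kb, −9.26 at the ESRP1 start, −31.1 at ESRP1 +52.5 kb, −33.9 at VIM +3.1 kb, −27.6 at FN1 +1.8 kb and 13.5 at ZEB2 +117.6 kb. They were −52.8 at SNAI1 −17.7 kb, 42.6 at SNAI1 −12.7 kb, −33.6 at SNAI1 −5.4 kb, 37.5 at SNAI1 +24.9 kb, 36.5 at SNAI2 +19.3 kb, 69.3 at SNAI2 +1.0 kb and 62.4 at SNAI2 +0.5 kb. Of these, 10 kept an adjusted p under 0.05 whichever of the 12 libraries was left out. EPCAM −22.7 kb and ZEB2 +117.6 kb kept it in 2 of 12 such fits, SNAI1 −12.7 kb in 3 and the ESRP1 start in 10. However, 8 of the 14 had no peak in the NaPr experiment and 2 none in the NaBu experiment. Leaving out a library of that experiment could not change the difference at these regions, so such fits are a weak check of them. Ranked over all tested regions, EPCAM −22.7 kb (0.0675) and SNAI1 −5.4 kb (0.0587) lost the call. Ranked by fold, 9 of the 14 kept it, and the ESRP1 start, VIM +3.1 kb, FN1 +1.8 kb, SNAI1 +24.9 kb and SNAI2 +0.5 kb (0.0894) lost it. Compound, dose and experiment cannot be told apart in these values.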

How the results depend on the processing

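The counts at member genes were small, so most alternatives moved some of them by over 1.5 times; the cause was not tested except where fewer regions or libraries entered. For NaPr (1 epithelial higher, 1 lower, 1 mesenchymal higher, 0 lower), ranking by fold left 0, 0 and 0 of the first 3, a peak in at least 1 library left 0 epithelial higher and 0 lower, a peak in all 6 libraries 0 epithelial higher, and 5 kb flanks 0 mesenchymal higher. Merging over 6 libraries gave 2 epithelial lower, the strongest 50000 intervals 2 epithelial and 1 mesenchymal lower, and the fit of all 12 libraries 3 epithelial and 4 mesenchymal higher and 2 mesenchymal lower. Tags scaled by background gave 0 epithelial lower, tags scaled by their median 7 epithelial and 4 mesenchymal lower, and ranking over all tested regions, chosen after seeing the data, 2 epithelial higher and 2 lower, 3 mesenchymal higher and 2 lower. For NaBu (4, 6, 7 and 6), ranking by fold gave 3 epithelial lower; a peak in at least 1 library 2 epithelial higher; a peak in all 6 libraries 2 epithelial and 4 mesenchymal higher; 5 kb flanks 3 mesenchymal higher; the strongest 50000 intervals 2 epithelial and 2 mesenchymal higher; and both tag scalings 2 epithelial and 3 mesenchymal higher and 15 epithelial lower. Of the 14 differences between compounds, 1 of 29 tested was called among regions with a peak in all 12 libraries. Leaving out 1 library gave 0 to 0, 0 to 0, 0 to 1 and 0 to 0 calls with NaPr, 2 to 3, 3 to 6, 5 to 6 and 3 to 5 with NaBu, and 11 to 15 differences. The replicate block gave 2 epithelial higher and 2 lower with NaPr; libraries of the same number had deviations correlated at 0.0049 to 0.031, so the numbers were not read as pairs. Of the named regions, the ZEB1 start with NaBu turned from 1.28 points, not called, to −0.35 (adjusted p = 0.0224) and −0.34 (0.0195) on the log2 scale of tags scaled by background and by median. Of all 532 values of named regions under an alternative, these 2 included, 424 kept their direction and side of the threshold, 74 lost a call, 21 gained one and 11 uncalled ones changed sign. Tag scaling by background put the median of all regions at 0.206 (log2) with NaPr. Ranks compare order within a library and cannot show a change shared by all regions, and a region without a peak lies under a limit that differs between libraries (weakest −log10 p 3.37 to 9.38).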
